A study of Mus musculus with 12 samples.

Results

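Interneuron peptides and calcium-binding proteins were followed as 8 genes, Sst, Vip, Cck, Tac1, Pvalb, Calb2, Lhx6 and Reln, out of 18962 genes with values. They are the rows of the table with these symbols. Messenger RNA was sequenced from whole brain without cerebellum and olfactory bulb of wild-type mice of CBA/N, an inbred laboratory strain. Female and male mice spent 4 weeks under winter-like conditions (10 °C, light for 8 h and darkness for 16 h a day) or summer-like ones (30 °C, light for 16 h and darkness for 8 h a day). The 12 libraries form 4 groups of 3, female winter, male winter, female summer and male summer. The labels give no ages. Light and temperature changed together, so their parts cannot be told apart. Sex and season (winter-like or summer-like housing) were read from letter codes that the labels do not spell out. Y-linked genes matched the sex in 12 of 12 libraries. Nothing in the labels says that each library is a separate animal, and the spread that p-values measure here may be technical. Each n below counts libraries, also where they are called brains, and each SD is a spread between libraries.

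Levels are FPKM, fragments scaled to transcript length and to the library's mapped total, so levels of different genes are compared per length. FPKM sums ran from 358511 to 375041 per library, between 16859 and 17003 genes lay above 0, and read depth is unknown. Pairs of libraries correlated at r between 0.9942 and 0.998 across genes, and genes are not independent replicates. Male winter library 1 stood apart in cerebellar genes, with summed levels of the cerebellum list of 163 FPKM. Females ran from 62.4 to 85.2 FPKM in winter and from 68.5 to 71.0 FPKM in summer, and males in summer from 70.0 to 73.1 FPKM. Female winter library 1 and female summer library 3 stood apart in base composition. Across 12935 genes, the rank correlation of a library's deviation (from the 12-library mean) with transcript GC content was -0.601 and -0.658 in these libraries, and as high as 0.546 in male winter library 3. In bulk tissue, fewer cells of a type and less RNA per cell cannot be told apart.

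GABAergic interneurons are local inhibitory neurons of cortex, hippocampus and striatum, sorted into classes by the peptides and calcium-binding proteins they hold. Somatostatin and parvalbumin mark the main classes born in the medial ganglionic eminence under the transcription factor Lhx6. Vasoactive intestinal peptide, calretinin (Calb2) and much of the cholecystokinin and reelin lie in classes from other sources. None of these genes is confined to interneurons in whole brain. Cck is also made by pyramidal cells, Tac1 by striatal projection neurons, Vip by the suprachiasmatic clock, Sst by hypothalamic neurons, Pvalb by Purkinje cells and Calb2 by thalamic and olfactory bulb neurons.

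The 8 genes lie on 8 chromosomes of the mouse build GRCm38.p6. Sst (gene 20604) lies at chr16:23889573-23891342 on the minus strand. Vip (gene 22353) lies at chr10:5639193-5647617 on the plus strand. Cck (gene 12424) lies at chr9:121489824-121495694 on the minus strand. Tac1 (gene 21333) lies at chr6:7555061-7562978 on the plus strand. Pvalb (gene 19293) lies at chr15:78191112-78206400 on the minus strand. Calb2 (gene 12308) lies at chr8:110142526-110168212 on the minus strand. Lhx6 (gene 16874) lies at chr2:36081950-36105992 on the minus strand and overlaps 1 other annotated gene. Reln (gene 19699) is by far the longest, 460252 bases at chr5:21884454-22344705 on the minus strand, and overlaps 7 annotated genes, among them antisense genes. Whether fragments were counted by strand is not stated, so the level of Reln may include some from its antisense genes. The other 6 genes overlap no annotated gene.

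The promoters of the peptide genes are shown because they share a short element that the choice of genes did not use. The cAMP response element, bound by CREB, links neuronal activity to transcription and was worked out on the somatostatin gene. Its palindrome is TGACGTCA, which holds both the shorter element TGACG and its reverse complement CGTCA. RefSeq promoters of GRCm38.p6, 250 bases before to 50 bases after each start, were matched by symbol for 7 of the 8 genes, giving 10 promoters. Both strands were searched. The palindrome was found in the Sst promoter, and in 1.79% of 32851 promoters overall. At least 1 of these 5-base elements was found for Sst, Vip, Cck and Tac1, the 4 peptide genes. The promoters of Pvalb, Lhx6 and Reln did not hold these letters, and 20.8% of all promoters did. A match is a description of letters and not a site. The stretches of 30 bases around the matches are given 5′ to 3′ on the gene's strand, with the match in capitals. The first Sst capital lies 48 bases before the start, that of Vip 79, that of Cck 47, and those of Tac1 197 and 43. The start is that of the promoter entry, which can differ from the end of the gene span given above. The Sst promoter, chr16:23890795-23891094, lies inside that gene's span.
Sst, chr16:23890874-23890903, minus strand: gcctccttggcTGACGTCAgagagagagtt
Vip, chr10:5639126-5639155, plus strand: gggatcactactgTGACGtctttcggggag
Cck, chr9:121495725-121495754, minus strand: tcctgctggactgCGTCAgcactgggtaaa
Tac1, chr6:7554851-7554880, plus strand: ttccctaaaattgCGTCAtttcgaacacaa
Tac1, chr6:7555005-7555034, plus strand: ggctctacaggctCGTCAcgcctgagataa

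The 8 genes covered a wide range of levels and kept 1 order in every library. Sst had the highest level, with a mean of 245 FPKM over the 12 libraries, rank 189 of 18962 genes. Cck followed at 144 FPKM, Pvalb at 75.9 FPKM and Calb2 at 50.5 FPKM. Tac1 stood at 36.1 FPKM, Vip at 15.4 FPKM, Reln at 11.7 FPKM and Lhx6 at 5.72 FPKM, rank 9191. The ratio of each gene to the next, averaged over the 12 libraries, was 1.32 to 2.36. All 7 pairs of neighbours had ranges that did not overlap. The same order held in 12 of 12 libraries. The sum of the 8 levels lay between 520 and 646 FPKM.

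**Figure D1:**
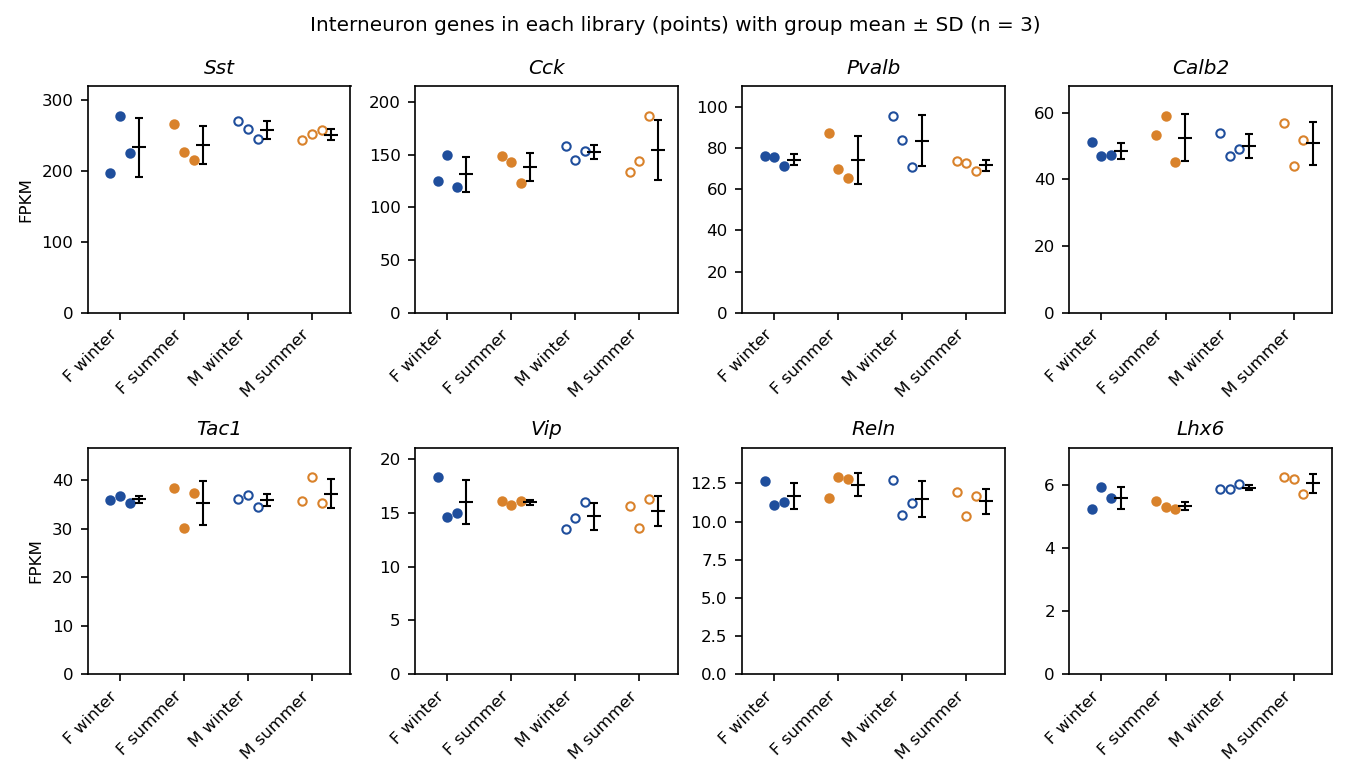
Level of each of the 8 genes (FPKM, linear axes from 0) in the 12 libraries, with female winter, female summer, male winter and male summer from left to right in each panel. Each point is a library, filled for females and open for males, and the bars give the group mean ± SD (n = 3); Sst lies highest (mean 245 FPKM) and Lhx6 lowest (5.72 FPKM), and the winter and summer libraries of each gene overlap.

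The genes differed in how steady they were between libraries of a group. Lhx6 had a residual SD of 0.053 on the log2(FPKM + 1) scale, against a median of 0.1 over the 13071 genes tested, and 6.56% of tested genes had a smaller one. Cck was the most variable of the 8, at 0.172, with 91.4% of tested genes below it. Pvalb (0.156), Sst (0.154) and Calb2 (0.146) were also above most genes. Vip (0.121), Tac1 (0.112) and Reln (0.105) lay nearer the middle. These SDs depend on the level of a gene, since the added 1 FPKM narrows the spread of low genes. On the FPKM scale itself, the coefficient of variation over 12 libraries ran from 6.23% for Lhx6 to 12.8% for Cck.

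The first comparison asks whether 4 weeks of winter-like against summer-like housing changed these genes. None of the 8 passed the test between seasons, and no fold change was large. The 95% confidence intervals of the winter over summer ratio, taken on FPKM + 1, stayed between 0.86 and 1.208 for all 8. Pvalb had the largest point estimate, 1.081-fold (0.967 to 1.208), and Sst lay closest to 1, at 1.003-fold. Values are differences of log2(FPKM + 1), winter minus summer, averaged over both sexes, from limma across 13071 genes with Benjamini-Hochberg adjustment at 0.05. Of all genes tested 0.00765% were called, a single gene, so 0 called of 8 equals the background. None of the 8 had an unadjusted p under 0.05, which 4.88% of all genes had. In none did the winter libraries lie apart from the summer libraries, as they did in 0.283% of all genes. The estimate was positive for 3 genes and negative for 5, with a median of -0.016 against -0.003 for all genes tested.

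Among the peptides, Sst encodes somatostatin, released onto the distal dendrites of pyramidal cells. Its level was 196.9, 277.96 and 224.49 FPKM in female winter libraries, 270.41, 258.42 and 245 FPKM in male winter libraries, 266.37, 226.99 and 215.33 FPKM in female summer libraries, and 243.77, 252.26 and 257.78 FPKM in male summer libraries. The female winter libraries held both the highest and the lowest value, so the seasons overlapped throughout. Winter brains averaged 246 ± 30.5 FPKM and summer brains 244 ± 19.3 FPKM (SD, n = 6 each). The log2 difference was 0.005 (SE 0.074, 95% interval -0.154 to 0.163; limma adjusted p = 0.998).

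Cck encodes cholecystokinin, which marks a class of basket cells and is also abundant in pyramidal cells. Its level was 124.91, 149.89 and 119.13 FPKM in female winter libraries, 158.09, 145.36 and 153.58 FPKM in male winter libraries, 148.82, 142.77 and 123.17 FPKM in female summer libraries, and 133.37, 144.15 and 187.17 FPKM in male summer libraries. Male summer library 3 was the highest, and the seasons overlapped. Winter brains averaged 142 ± 16.0 FPKM and summer brains 147 ± 21.9 FPKM (SD, n = 6 each), with a log2 difference of -0.043 (SE 0.081).

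Vip encodes vasoactive intestinal peptide, which marks interneurons that inhibit other interneurons and is a signal of the suprachiasmatic clock. Its level was 18.31, 14.62 and 15 FPKM in female winter libraries, 13.5, 14.51 and 16.02 FPKM in male winter libraries, 16.08, 15.7 and 16.09 FPKM in female summer libraries, and 15.67, 13.56 and 16.28 FPKM in male summer libraries. Female winter library 1 was the highest and male winter library 1 the lowest, so winter spanned summer. The log2 difference was -0.024 (SE 0.063). Tac1 encodes the precursor of substance P. Its level ran from 34.49 to 36.91 FPKM in winter brains with a median of 36.1, and from 30.17 to 40.68 FPKM in summer brains with a median of 36.6. Winter values lay inside the summer range, and the log2 difference was -0.007 (SE 0.058).

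Of the calcium-binding proteins, Pvalb encodes parvalbumin, a fast buffer of basket and chandelier cells. Its level was 76.19, 75.66 and 71.06 FPKM in female winter libraries, 95.67, 83.94 and 70.9 FPKM in male winter libraries, 87.07, 69.94 and 65.23 FPKM in female summer libraries, and 73.51, 72.43 and 68.6 FPKM in male summer libraries. Male winter library 1 was the highest, and it is also the library with the high cerebellar genes. Winter brains averaged 78.9 ± 9.49 FPKM and summer brains 72.8 ± 7.58 FPKM (SD, n = 6 each). The log2 difference was 0.113 (SE 0.075, 95% interval -0.048 to 0.273), with p = 0.154 before adjustment in limma and 0.26 in an exact permutation test over 400 assignments. With a library left out it ran from 0.062 without male winter library 1 to 0.173 without female summer library 1. Calb2 encodes calretinin. Its level was 51.2, 46.91 and 47.39 FPKM in female winter libraries, 53.89, 47.13 and 49.1 FPKM in male winter libraries, 53.38, 59.16 and 45.08 FPKM in female summer libraries, and 56.86, 43.97 and 51.75 FPKM in male summer libraries. The summer libraries held both the highest and the lowest value. The log2 difference was -0.062 (SE 0.071, 95% interval -0.214 to 0.091).

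Lhx6, the transcription factor of interneurons from the medial ganglionic eminence, was low and steady. It ran from 5.23 to 6.01 FPKM in winter brains with a median of 5.86, and from 5.23 to 6.24 FPKM in summer brains with a median of 5.59. The lowest value was the same in both seasons, and the log2 difference was 0.014 (SE 0.046). Reln encodes reelin, a secreted glycoprotein of layer 1 and other interneurons that signals through lipoprotein receptors. It ran from 10.45 to 12.74 FPKM in winter brains with a median of 11.2, and from 10.35 to 12.91 FPKM in summer brains with a median of 11.8. The ranges nearly coincided, and the log2 difference was -0.036 (SE 0.058).

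**Figure D2:**
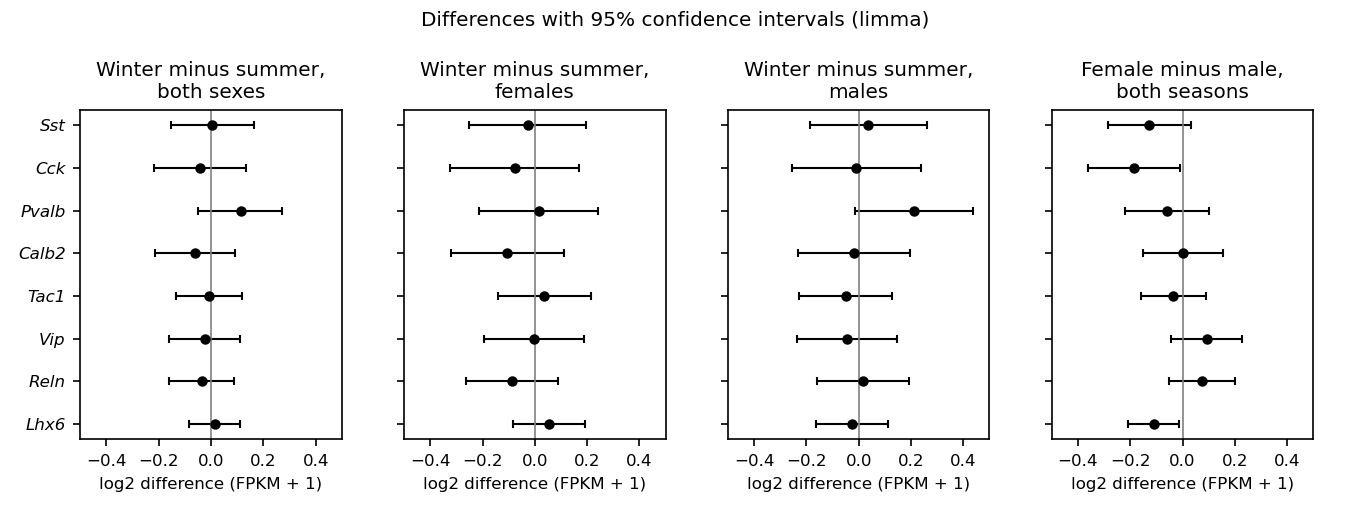
Log2 differences of FPKM + 1 for the 8 genes, winter minus summer over both sexes, in females and in males, and female minus male, with 95% confidence intervals from limma. The winter minus summer intervals all hold 0, with Pvalb in males at 0.211, and the female minus male intervals of Cck and Lhx6 do not.

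Within females, none of the 8 was called, beside 0.0% of all genes, and none had an unadjusted p under 0.05, beside 1.74%. In none did the female winter and female summer libraries lie apart, as they did in 4.2% of all genes. Estimates ran from -0.106 for Calb2 (SE 0.101) to 0.055 for Lhx6 (SE 0.065). Within males, none was called either, beside 0.00765% of all genes, none had an unadjusted p under 0.05, beside 5.01%, and none had libraries that lay apart by season, beside 12.6%. Pvalb averaged 83.5 ± 12.4 FPKM in male winter brains and 71.5 ± 2.58 FPKM in male summer brains (SD, n = 3 each), a log2 difference of 0.211 (SE 0.106, 95% interval -0.016 to 0.438; limma adjusted p = 0.974). The male winter value of 70.9 FPKM lay inside the male summer range, so the groups overlapped. With a library left out the difference ran from 0.109 without male winter library 1 to 0.322 without male winter library 3. Over all male libraries its exact permutation p was 0.3, where 20 assignments allow no p below 0.1. The other 7 estimates in males lay between -0.05 for Tac1 and 0.037 for Sst. The female minus male season effect of Pvalb was -0.196 (SE 0.150, limma adjusted p = 0.999), with 0 of 8 called beside 0.0% of all genes. None had an unadjusted p under 0.05, beside 1.8% of all genes. For the other genes it ran from -0.101 for Reln to 0.087 for Tac1.

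The second comparison is female against male over both seasons. None of the 8 was called, beside 0.0612% of all genes, and in none did the sexes lie apart, beside 0.643%. Cck and Lhx6 had unadjusted p under 0.05 in limma, as did 11.6% of all genes, and both were lower in females. Cck averaged 135 ± 13.9 FPKM in female and 154 ± 18.5 FPKM in male brains (SD, n = 6 each), a log2 difference of -0.186 (SE 0.081, 95% interval -0.36 to -0.011; limma adjusted p = 0.421). Its female libraries ran from 119.13 to 149.89 FPKM and its male libraries from 133.37 to 187.17 FPKM. Lhx6 averaged 5.46 ± 0.273 FPKM in female and 5.97 ± 0.213 FPKM in male brains (SD, n = 6 each), a log2 difference of -0.111 (SE 0.046, 95% interval -0.209 to -0.013; limma adjusted p = 0.403). Its female libraries ran from 5.23 to 5.93 FPKM and its male libraries from 5.69 to 6.24 FPKM, so the sexes overlapped for both genes. Female winter library 1 and female summer library 3, the libraries with the strongest trend towards low GC content, are both female. Without them the differences were -0.129 for Cck and -0.086 for Lhx6, with limma adjusted p of 0.836 and 0.806. Sst had a difference of -0.127, or -0.038 without these libraries. Vip (0.092, or 0.041 without these libraries) and Reln (0.075, or 0.037 without them) had positive estimates. Calb2 stood at 0.001, or 0.034 without them. The part of the libraries' trend with GC content in these differences was not tested.

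Genes that share the biology of these 8 were described by lists, with counts and medians over tested members. No gene of the 20 lists was called in any of the 5 contrasts. Of the transcription factors of interneuron identity, 14 of 15 were tested, and 5 were higher and 9 lower in winter, with a median log2 difference of -0.018. Dlx6 stood at 0.138 and Dlx2 at -0.134. Of 28 other interneuron markers, all tested, 11 were positive and 17 negative, with a median of -0.006. Cort, which encodes cortistatin, a relative of somatostatin, was the 1 of 28 with an unadjusted p under 0.05 in limma. Of all genes, 4.88% had one. Its mean level was 1.20 FPKM in female and 1.69 FPKM in male winter brains, against 1.20 FPKM in female and 0.877 FPKM in male summer brains, with a log2 difference of 0.269 (SE 0.111, limma adjusted p = 0.997). Nos1 (-0.089), neuronal nitric oxide synthase, and Syt2 (0.078), a synaptotagmin of parvalbumin terminals, followed it.

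The receptors and the machinery of the peptides held no called gene either. Of 13 receptors listed for these peptides or relatives of them, 10 were tested, 5 positive and 5 negative, with a median of -0.027. The somatostatin receptor Sstr3 stood at -0.102 (SE 0.047). It was the 1 of 10 with an unadjusted p under 0.05 in limma, beside 4.88% of all genes. The VIP receptor Vipr2 stood at -0.145 and the neurokinin B receptor Tacr3 at -0.119. Of 12 genes that process and store peptides, 6 were positive and 6 negative, with a median of 0.003. The prohormone convertase Pcsk2 averaged 95.7 FPKM in female and 92.6 FPKM in male winter brains, against 89.2 FPKM in female and 89.5 FPKM in male summer brains, a log2 difference of 0.075. The granin Chgb stood at 0.051 and the protease Furin at -0.060. All 10 genes of the reelin pathway were tested, 2 positive and 8 negative, with a median of -0.009. The reelin receptor Lrp8 stood at -0.075, the adaptor Crkl at -0.056 and the kinase Fyn at -0.031.

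Among 20 EF-hand calcium-binding genes, which hold Pvalb and Calb2 as well, 18 were tested, 9 positive and 9 negative, with a median of 0.004. Hpcal4, a neuronal calcium sensor, had the smallest p. Its mean level was 206 FPKM in female and 204 FPKM in male winter brains, against 221 FPKM in female and 225 FPKM in male summer brains, a log2 difference of -0.119 (SE 0.034; limma adjusted p = 0.956). Secretagogin (Scgn) stood at -0.249 (SE 0.125) and Necab3 at 0.093. Perineuronal nets are the matrix around parvalbumin cells. Of 13 of their genes 10 were tested, 3 positive and 7 negative, with a median of -0.045, and the tenascins Tnc (-0.150, SE 0.055) and Tnr (-0.114, SE 0.047) had unadjusted p under 0.05 in limma (adjusted p = 0.997 each), 2 of 10 genes, beside 4.88% of all genes. Versican (Vcan) stood at 0.094.

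**Figure D3:**
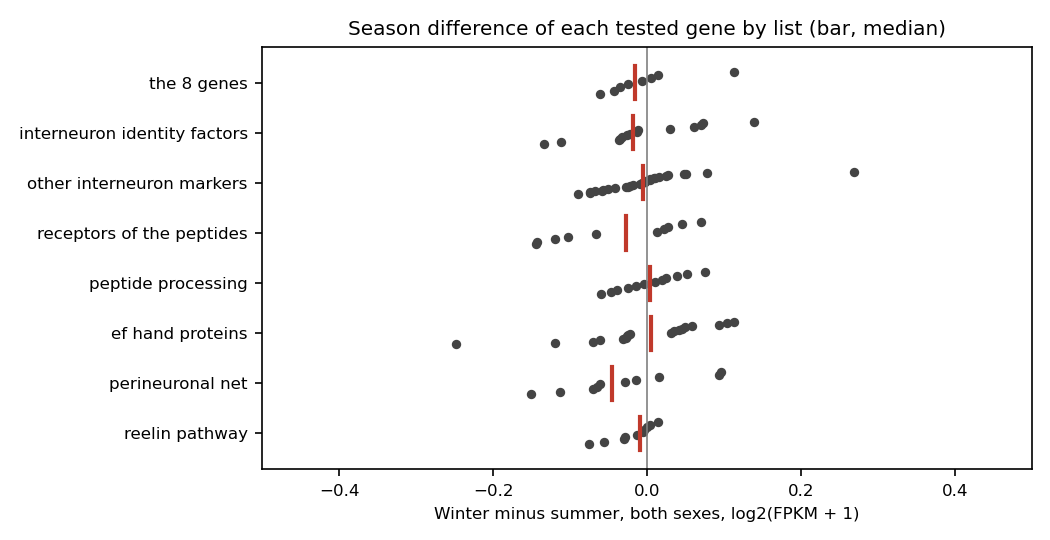
Winter minus summer difference of log2(FPKM + 1), over both sexes, of each tested gene of the 8 and of the pathway and marker lists. Each point is a gene and each red bar the median of its list; the medians of the lists other than the 8 lie between -0.045 for perineuronal nets and 0.004 for EF-hand proteins, and Cort, at 0.269, lies farthest to the right.

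Whole brains can differ in how much of each region or cell type they hold, so region and cell lists were measured the same way. The medians were 0.211 for cerebellum (8 of 9 tested genes positive) and -0.186 for olfactory bulb (5 of 6 negative), the regions that were taken off. The cerebellum value rests on male winter library 1. Without it the median was -0.009 (4 genes positive, 5 negative), and with all libraries it was 0.02 in females and 0.393 in males. The olfactory bulb median stayed between -0.236 and -0.139 with any library left out, an alternative added after seeing the data. In the cerebellum list, Gdf10 (0.207), Slc1a6 (0.119) and Cbln3 (0.619) had the smallest p. In the olfactory bulb list they were Doc2g (-0.293, SE 0.101), Nmb (-0.168, SE 0.070) and Ly6g6e (-0.204). Cortex (0.021; Neurod6 -0.106, Mef2c 0.082, Emx1 0.189), hippocampus (0.004; Wfs1 0.030, C1ql2 0.032) and striatum (-0.045; Rarb -0.090, Drd1 -0.063) lay closer to 0. So did thalamus (0.055; Rora 0.110, Tcf7l2 0.076, Lef1 0.085), midbrain and hindbrain (0.053; Th -0.093, Tph2 0.284, Slc6a5 0.122) and hypothalamus (0.023; Pomc 0.222, Oxt 0.195). Vasopressin (Avp), a hypothalamic peptide, had a log2 difference of 0.465 (SE 0.093; limma adjusted p = 0.407).

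Among cell types, oligodendrocyte genes had a median of 0.045 (Mog 0.119, Opalin 0.191) and astrocyte genes -0.046 (Aldh1l1 0.078, Slc1a3 -0.060, Aqp4 -0.096). Microglial genes were negative in 6 of 6, with a median of -0.05 (P2ry12 -0.086, C1qa -0.061, Aif1 -0.101). Vascular and blood genes were negative in 5 of 5, with a median of -0.109 (Cldn5 -0.441, SE 0.120, Col3a1 -0.164, Acta2 -0.109). The choroid plexus median was -0.037 (Otx2 -0.076, Folr1 0.175, Ttr -0.072). The part of these lists in the season values of the 8 genes was not tested.

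Across the 12 libraries, none of the 28 pairs among the 8 genes passed Benjamini-Hochberg adjustment. The strongest was Sst with Cck, with Pearson's r of 0.705 (permutation p = 0.0106, adjusted 0.152) and Spearman's rho of 0.79 (permutation p = 0.0035, adjusted 0.098). It was 0.572 without the 2 libraries farthest from the median of Sst, and 0.619 on deviations from the group means. Tac1 and Calb2 gave r = -0.665 (permutation p = 0.0138, adjusted 0.152), which was -0.128 without the 2 libraries farthest from the median and so rests on them. Sst and Vip gave r = -0.653 (permutation p = 0.022, adjusted 0.152), or -0.301 without the 2 farthest libraries. Lhx6 and Reln gave r = -0.646 (permutation p = 0.0253, adjusted 0.152), or -0.481 without them. Sst and Lhx6 gave r = 0.633 (permutation p = 0.0272, adjusted 0.152), or 0.296 without the 2 farthest libraries. Calb2 and Reln gave r = 0.585 (permutation p = 0.0484, adjusted 0.194), or 0.301 without them. The part of the libraries' trend with GC content in these pairs was not tested.

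Relations with the region lists were computed for all 64 pairs of gene and region, with a region taken as the mean log2 level of its tested genes. One pair passed adjustment over the 64, Calb2 with the olfactory bulb list. Its r was 0.856 (permutation p = 0.00048, adjusted 0.0307) and its rho 0.888 (permutation p = 0.00027, adjusted 0.0173). It was 0.828 without the 2 libraries farthest from the median of the bulb level. On deviations from the group means r was 0.868 (exact permutation within groups, p = 0.000772, adjusted 0.0494), where this p is the smallest that 1296 assignments can give. Leaving out each library in turn gave r between 0.815 and 0.925. The adjusted p stayed under 0.05 without female winter library 1 (0.0387), female summer library 3 (0.00448) or male summer library 2 (0.0432), and lay between 0.0531 and 0.0864 without any of the other 9. Of 13064 other tested genes, 2 (0.0153%) followed the bulb level as closely, Lgr6 and S100a5.

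The bulb genes behind this value were low but measurable in dissected brains labelled as lacking the bulb. Doc2g ran from 4.68 to 8.68 FPKM, Cdhr1 from 3.05 to 6.67 FPKM and Tpbg from 4.0 to 5.43 FPKM over the 12 libraries. Nmb ran from 3.35 to 4.94 FPKM, Lbhd2 from 1.14 to 3.01 FPKM and Ly6g6e from 0.49 to 1.46 FPKM. Eomes (0.24 to 1.25 FPKM) and Tbx21 (0.04 to 0.66 FPKM), transcription factors of mitral and tufted cells, did not pass the filter and were not at 0 in all libraries. The summed level of the 10 bulb genes was 19.3 to 27.4 FPKM in female winter, 23.6 to 30.3 FPKM in male winter, 26.8 to 31.2 FPKM in female summer and 23.0 to 31.6 FPKM in male summer brains. The lowest sum was in female winter brains, and the groups overlapped. With all 10 genes and no filter, an alternative added after seeing the data, r with Calb2 was 0.805. Reln also followed the bulb list, at r = 0.767 (permutation p = 0.00482, adjusted 0.0771), and did not pass adjustment. Whether bulb tissue left on the brains sets the spread of Calb2 was not tested.

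**Figure D4:**
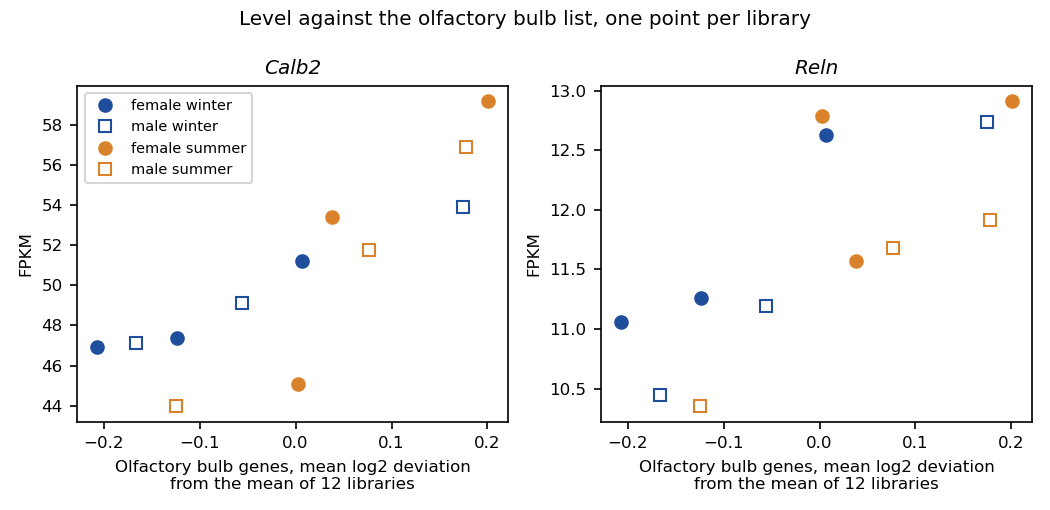
Level of Calb2 (left) and of Reln (right) in FPKM against the mean log2 deviation of the tested olfactory bulb genes from the 12-library mean, with 1 point for each library, coloured by season and filled for females; the level axes do not start at 0. Libraries with higher bulb genes had more Calb2 (r = 0.856) and more Reln (r = 0.767), both computed on log2(FPKM + 1).

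Sst, Pvalb and Lhx6 had positive correlations with the cortex list that did not pass adjustment. For Sst r was 0.789 (permutation p = 0.00232, adjusted 0.0508), and 0.759 without the 2 libraries farthest from the median. For Pvalb it was 0.783 (adjusted 0.0508), and 0.725 without those libraries. For Lhx6 it was 0.719 (adjusted 0.118), and 0.51 without those libraries. None passed adjustment over the 64 pairs with all 12 libraries. Adjusted permutation p for rho was 0.109 for Sst, 0.109 for Pvalb and 0.191 for Lhx6. On deviations from the group means it was 0.198, 0.148 and 0.283 in the same order. With 1 library left out, Sst passed by r only without female winter library 1 (adjusted permutation p = 0.0387). Pvalb passed only without that library (0.0467) or male summer library 2 (0.0432). The cortex level was followed as closely as by Sst by 1.93% of other genes, as by Pvalb by 2.19% and as by Lhx6 by 5.28%. The part of the libraries' trend with GC content in these and the other relations with region lists was not tested. Pvalb and the cerebellum list gave r = 0.708 (permutation p = 0.0166, adjusted 0.14), which was 0.276 without male winter library 1 and so rests on it. In that library Pcp2, a Purkinje cell gene, stood at 24.86 FPKM, against at most 2.05 FPKM elsewhere. Tac1 gave r = -0.683 with the thalamus list (permutation p = 0.0114, adjusted 0.121), or -0.409 without female summer library 2. With the striatum list Tac1 gave r = 0.599 (permutation p = 0.0401, adjusted 0.227), which fell as low as 0.41 with 1 library left out. Vip gave r = -0.656 with the striatum list (permutation p = 0.0204, adjusted 0.145), or -0.239 without the 2 libraries farthest from the median.

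**Figure D5:**
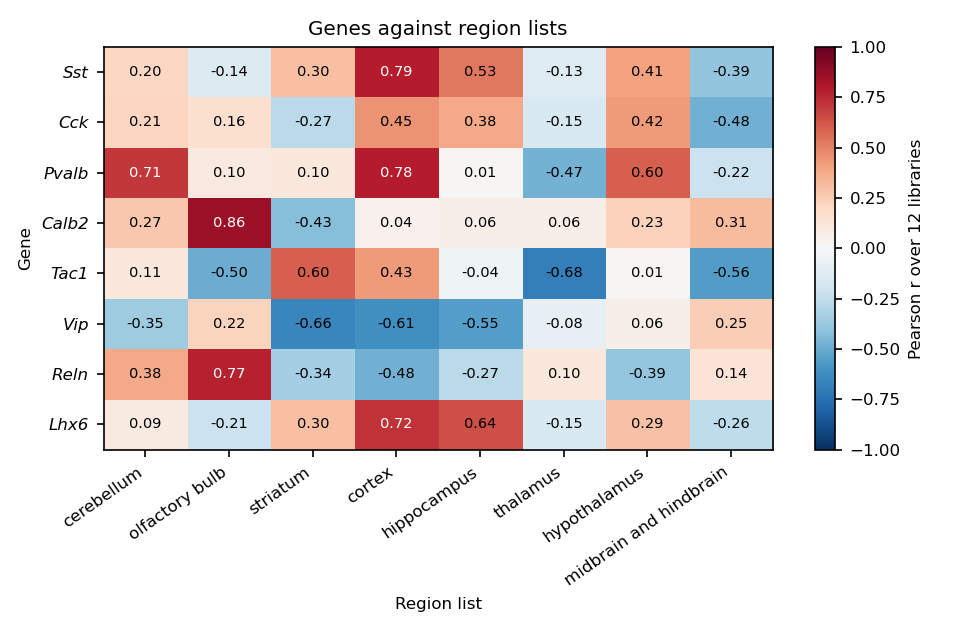
Pearson's r of each of the 8 genes with each of the 8 region lists over the 12 libraries. The highest are Calb2 with olfactory bulb (0.856), Sst with cortex (0.789) and Pvalb with cortex (0.783); of the 64 values the first alone passed adjustment.

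The genes most alike in pattern were taken as the 3 highest Pearson's r over the 12 libraries among tested genes, given as a description. For Sst they were Zer1 (0.924), Taf1c (0.909) and Acot7 (0.908), and for Cck Timm50 (0.959), Trir (0.908) and Ldha (0.885). For Vip they were Nexmif (0.896), Alyref (0.887) and Ltbp1 (0.886), and for Tac1 Echdc2 (0.812), Irf8 (0.8) and Sirpa (0.771). For Pvalb they were Dcxr (0.894), Ccdc142 (0.88) and Eml3 (0.876), and for Calb2 Dlx1 (0.83), Bcap31 (0.82) and Cerkl (0.764). For Lhx6 they were Wdr81 (0.922), Myo1c (0.91) and Slc35a2 (0.903), and for Reln Clmp (0.901), Traf3ip1 (0.883) and S100a5 (0.864). Among these, Dlx1, an interneuron transcription factor, is the one that stands on an interneuron list used here. These libraries differ in their trend with GC content across genes, and its part in these values was not tested.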

How the data were processed

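Poly-A RNA was sequenced as paired-end strand-specific libraries, per the labels' protocols. The submitters' processing notes name HISAT, RSEM and the build GRCm38.p6, with no tool versions. The authors' deposited table holds FPKM for 18962 genes in 12 libraries. FPKM is scaled within a library, so changes are relative to the rest of it, and precision comes from replicates alone because depth is unknown. One line without values was left out, 25 symbols that had become dates were restored, and 18836 gene identifiers matched RefSeq.

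The analysis used log2(FPKM + 1), a scale that understates changes of low genes. The 13071 genes that reached 1 FPKM in 3 or more libraries were tested, among them all 8 described here. One limma model (version 3.58.1, R 4.3.3; trended variance, 4 group means, two-sided, Benjamini-Hochberg over all tested genes) gave the 5 contrasts, and it was tested on simulated data. Relations used permutation tests with 100000 resamples, written in numpy 2.4.6 (Python 3.11.15) with ranks from scipy 1.17.1. The members and gene lists were chosen with earlier results of these data known. The genes named are the 8, the 3 with the smallest season p of each list, any called list gene, and the 3 most alike; some list genes that the rule names are not reported here. The reported model did not pair libraries by replicate number. Alternatives were the pseudocount, filter, scaling, variance model, sample weights, a replicate block and leaving out libraries.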

Additional observations from a re-analysis of the deposited data

How the results depend on the processing

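None of the 8 genes was called in any contrast under any alternative. The 40 differences (8 genes in 5 contrasts) were recomputed in 904 alternatives, of which 842 kept the direction and 62 turned it, in 21 of the 40. Each of the 21 was smaller in the reported model than its standard error.

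For winter minus summer over both sexes, Sst became -0.005 with quantile normalization, and Tac1 became 0.049 with sample weights and 0.016 without female winter library 1 and female summer library 3. In females, Sst became 0.072 with weights and 0.023 without those libraries, and Pvalb -0.089 without them. In males, Cck became 0.039 and Calb2 0.013 with weights. For the female minus male season effect, Sst became 0.037 and Vip -0.051 with weights, and Vip -0.051 without those libraries. For female minus male, Calb2 became -0.01 with median-ratio scaling. The causes were not tested.

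Leaving out each library in turn gave these ranges where a direction turned. Over both sexes they were -0.062 to 0.062 for Sst, -0.072 to 0.004 for Vip, -0.093 to 0.029 for Cck, -0.061 to 0.025 for Tac1 and -0.005 to 0.034 for Lhx6. In females they were -0.161 to 0.086 for Sst, -0.101 to 0.052 for Vip, -0.071 to 0.098 for Tac1 and -0.071 to 0.135 for Pvalb. In males they were -0.118 to 0.011 for Vip, -0.109 to 0.134 for Cck, -0.085 to 0.013 for Tac1, -0.116 to 0.065 for Calb2 and -0.057 to 0.074 for Reln. For the season by sex effect they were -0.198 to 0.049 for Sst, -0.057 to 0.113 for Vip, -0.21 to 0.033 for Cck, -0.02 to 0.148 for Tac1 and -0.192 to 0.011 for Calb2. For sex they were -0.066 to 0.018 for Tac1 and -0.048 to 0.053 for Calb2. The other 19 kept their direction, several over a wide range. Over both sexes these were 0.062 to 0.173 for Pvalb, -0.114 to -0.017 for Calb2 and -0.072 to -0.006 for Reln. In females they were -0.175 to -0.01 for Cck, -0.21 to -0.017 for Calb2, 0.017 to 0.094 for Lhx6 and -0.141 to -0.053 for Reln, and in males 0.002 to 0.073 for Sst, 0.109 to 0.322 for Pvalb and -0.063 to -0.006 for Lhx6. For the season by sex effect they were -0.308 to -0.076 for Pvalb, 0.044 to 0.121 for Lhx6 and -0.16 to -0.029 for Reln. For sex they were -0.193 to -0.07 for Sst, 0.044 to 0.122 for Vip, -0.235 to -0.114 for Cck, -0.119 to -0.007 for Pvalb, -0.13 to -0.092 for Lhx6 and 0.045 to 0.111 for Reln. The season median of the cerebellum list ran from -0.009 to 0.346. The medians of the interneuron identity, peptide processing, EF-hand, cortex, hippocampus, thalamus, midbrain and hindbrain, and choroid plexus lists, all within 0.1 of 0 over 12 libraries, also turned with some library left out.

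Over all genes, season called 1 gene, 3 with sample weights, and 1 to 3 with a library left out. In females it called 0 genes, 1 with weights, and 0 to 1 with a library left out, and in males 1, and 1 to 3. Sex called 8 genes, 3 with a filter in every library, 218 with weights, and 8 to 136 with a library left out. Among the 28 pairs of the genes 0 passed, and 0 to 1 with a library left out. Among the 64 pairs with regions 1 passed, and 0 to 3.

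Same-numbered libraries deviated from their group means with correlations of -0.229 to 0.242, 6 of 18 over 0.1. These values cannot tell whether the numbers mark shared sources, since the libraries also deviate with GC content. A replicate block called 1 gene for season and 12 for sex, and none of the 8. The depth behind FPKM is unknown, so counting error for the low genes, Lhx6 above all, cannot be given.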
